A study of Homo sapiens with 3 samples.

Results

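The HOX cluster genes of CaSki cells are described here across 3 libraries. Members were all gene symbols made of HOX, a cluster letter from A to D and a number, which gave 39 of the 23277 symbols in the files: 11 of the HOXA cluster, 10 of HOXB, 9 of HOXC and 9 of HOXD. CaSki is an established human cell line grown from a carcinoma of the cervix of epidermoid type, and its cells hold papillomavirus DNA. The first library came from cells with FLAG-tagged NANOG in the retroviral vector pMSCV that were given an siRNA against HDAC1 (NANOG siHDAC1). The second came from NANOG cells that received the control siRNA, directed at GFP (NANOG siGFP), and the third from cells with the empty pMSCV vector and the GFP siRNA (empty vector siGFP). Total RNA was sequenced, and the labels do not say whether the cells are a pool or a clone. With 1 library in each group there was no spread between replicates, so no difference below has a test, an error or a p-value.

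HOX genes encode homeodomain transcription factors that give cells their position along the body axis. They lie in clusters, and genes with low position numbers are used at the head end and those with high numbers toward the tail, in the order in which they stand on the chromosome. Genes with the same number in different clusters are paralogs. In the female reproductive tract the HOXA genes of high number mark successive regions: HOXA9 the oviduct, HOXA10 the uterus, HOXA11 the lower uterus and cervix, and HOXA13 the upper vagina. HOX proteins bind DNA together with PBX and MEIS cofactors, and Polycomb and trithorax proteins keep the clusters off or on. NANOG, a homeodomain factor too, maintains pluripotency in embryonic cells. HDAC1 removes acetyl groups from histones as part of corepressors.

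The labels were checked first. NANOG was at 325 FPKM in NANOG siHDAC1 cells, 298 FPKM in NANOG siGFP cells and 0.0357 FPKM in empty vector cells, where FPKM counts fragments relative to transcript length and to all mapped fragments of the library. For HDAC1 these libraries gave 12.8, 108 and 19.0 FPKM, so it was lowest with the HDAC1 siRNA but high in the NANOG siGFP library, which enters 2 of the 3 comparisons. Epithelial markers were present in all 3 libraries, with 8, 7 and 8 of 8 markers at 1 FPKM or more and sums between 3783 and 4788 FPKM. Fibroblast markers summed to 0.0617, 0.993 and 0.0826 FPKM over 5 genes, the highest sum resting on COL1A2 at 0.948 FPKM in the NANOG siGFP library, and the 5 blood and endothelial markers summed to 0.463, 0.326 and 0.215 FPKM.

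Of the 39 HOX genes, 35 were above 0 in at least 1 library, and 21, 24 and 20 were at 1 FPKM or more in NANOG siHDAC1, NANOG siGFP and empty vector siGFP cells. HOXB1, HOXB13, HOXC12 and HOXD12 were listed at 0 in all 3 libraries. The same 5 genes had the highest levels in every library: HOXB7, HOXA9, HOXA10, HOXA7 and HOXB2. A set of 22 members averaged 1 FPKM or more across libraries and is called tested below; the other 17 are given by their levels. Spans of 23 of the 39 members overlap another gene in RefSeq's GRCh38.p14 table, for example HOXA9 with the HOXA10-HOXA9 read-through, HOXC4 with HOXC5 and HOXC6, and HOXA5 with the antisense gene HOXA-AS3. The library kit keeps strand, but how strand was used in quantification is not given in the sources used here, so values of overlapping genes are uncertain.

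Regulatory sequence is shown for HOXA9 and HOXA11, which among the tested HOX genes had the largest positive differences of log2(FPKM + 1) in NANOG siGFP against empty vector cells, and for HOXA4, which had the most negative one; by FPKM ratio HOXD9 and HOXC6 stood higher. They were chosen for these values. Each line gives the 250 bases before the RefSeq start (GRCh38.p14, minus strand), and capitals mark TAAT, the core that homeodomains bind, on either strand.
HOXA9, chr7:27165538-27165787: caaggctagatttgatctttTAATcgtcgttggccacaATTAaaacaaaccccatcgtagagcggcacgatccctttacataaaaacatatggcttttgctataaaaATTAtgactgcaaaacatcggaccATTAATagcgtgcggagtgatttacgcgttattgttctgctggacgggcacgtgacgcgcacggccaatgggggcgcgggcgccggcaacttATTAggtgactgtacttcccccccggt
HOXA11, chr7:27185233-27185482: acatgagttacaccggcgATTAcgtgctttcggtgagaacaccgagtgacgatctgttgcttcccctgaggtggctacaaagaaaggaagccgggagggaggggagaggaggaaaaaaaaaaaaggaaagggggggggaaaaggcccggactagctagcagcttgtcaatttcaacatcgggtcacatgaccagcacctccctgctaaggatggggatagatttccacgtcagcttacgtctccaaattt
HOXA4, chr7:27130758-27131007: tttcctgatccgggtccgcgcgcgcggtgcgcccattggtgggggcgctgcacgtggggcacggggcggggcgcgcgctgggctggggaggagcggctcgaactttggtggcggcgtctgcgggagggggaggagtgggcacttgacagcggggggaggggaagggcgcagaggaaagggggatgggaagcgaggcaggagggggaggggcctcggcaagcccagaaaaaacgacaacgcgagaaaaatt
TAAT occurred 6 times before HOXA9, where 1 pair of matches overlaps, 1 time before HOXA11 and 0 times before HOXA4. The window of HOXA7, which differed by 0.59 in the same comparison, held 0. Whether such counts go with the differences was not tested. GC content was 48.8%, 51.6% and 70.0%. Of 35116 RefSeq promoter windows of this length, 47.4% held TAAT on either strand, and of the 27 windows that the table gives for 20 HOX members, 20 did. The longer TAATGG was in 5.90% of all windows and in 2 of the 27, those of HOXA6 and HOXA9. AGGTCA, the short element bound by retinoic acid receptors and other nuclear receptors, was in 12.1% of all windows and 0 of the 27. The E-box CACGTG was in 6.34% of all windows and 8 of the 27, among them those of HOXA9 and HOXA4. Windows of 1 gene can overlap, HOXC4 and HOXC5 share 1 window, and a match is a description of these letters and not a bound site.

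HOX clusters also hold microRNA genes, and miR-196 is known to cut HOXB8 mRNA in mouse. The mature miR-196 sequences from RefSeq (GRCh38.p14), with the seed at bases 2 to 8 in capitals, and the matching stretch of the HOXB8 transcript in GENCODE release 29 are given to show this pairing.
hsa-miR-196a-5p: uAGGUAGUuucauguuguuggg
hsa-miR-196b-5p: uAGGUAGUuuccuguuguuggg
HOXB8 stretch: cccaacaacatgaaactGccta
The microRNAs share their seed and differ at 1 base, A12C, counted from the 5′ end. The HOXB8 stretch is complementary to 21 of the 22 bases of miR-196a, and its capital marks the only difference from a perfect complement, A18G, counted from the stretch's 5′ end. This G lies opposite a U inside the seed, which was not counted as a pair, so the stretch holds no exact seed match. No other gene among the 19669 with a coding transcript searched reached 21 bases; the next member, HOXA7, reached 15. MIR10A, MIR10B, MIR196A1, MIR196A2, MIR196B and MIR615 were listed at 0 in all 3 libraries. Whether these total RNA libraries capture RNAs as short as mature microRNAs was not tested. The 0 values therefore do not show that the microRNAs are absent.

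**Figure D1:**
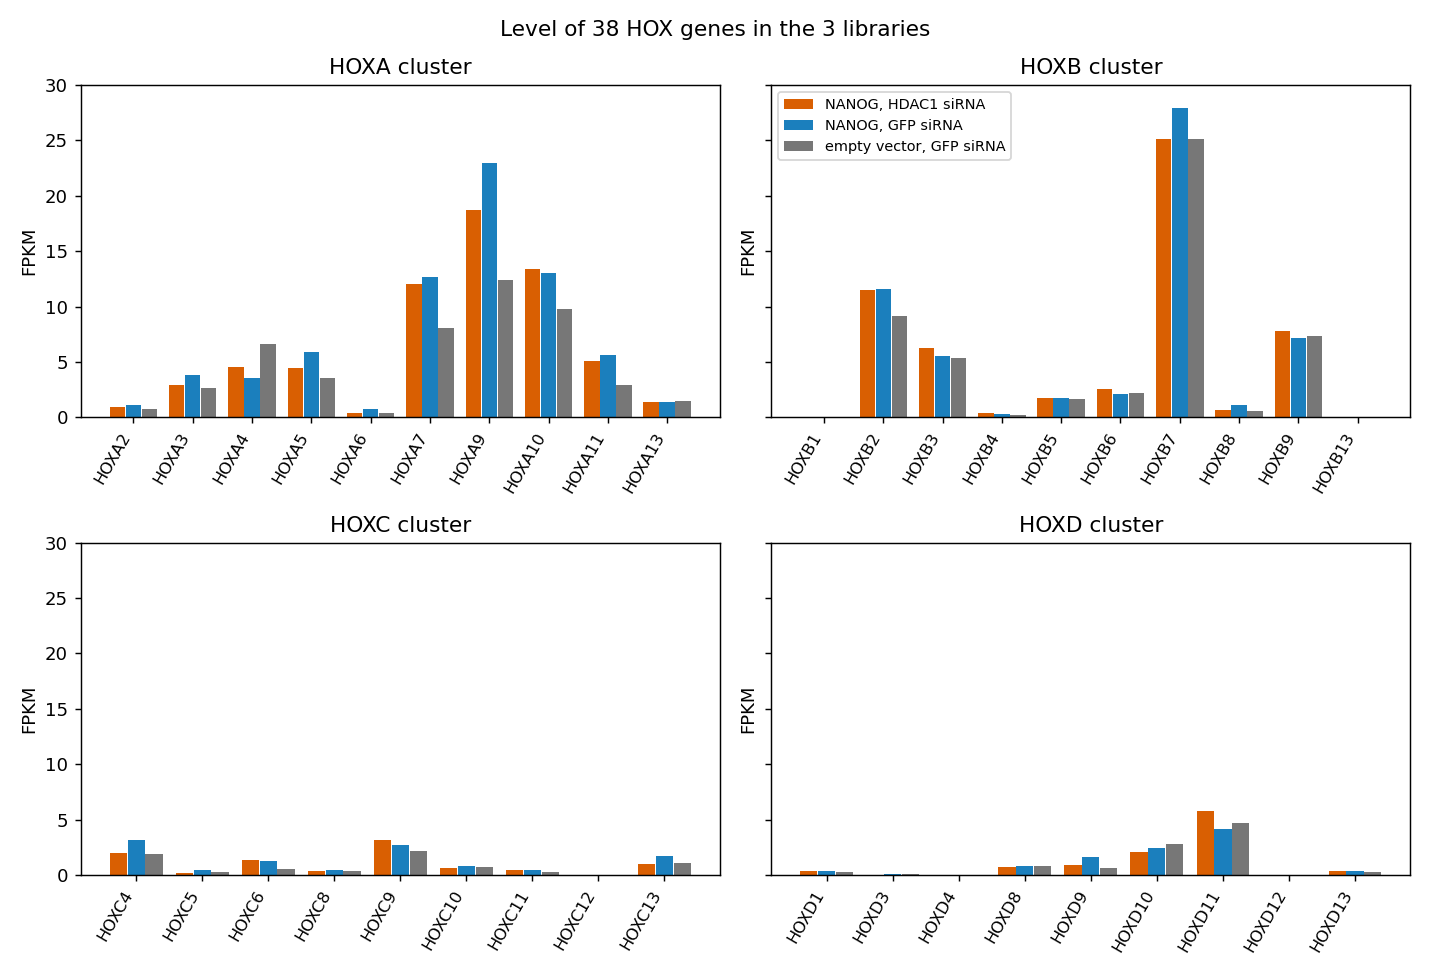
FPKM of 38 HOX genes in the 3 libraries, 1 bar per library, by cluster. HOXB7 and HOXA9 were highest in every library, at 25.1 to 27.9 and 12.4 to 23.0 FPKM, while HOXC and HOXD genes stayed under 6 FPKM.

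Within the HOXA cluster the 6 genes from HOXA5 to HOXA11 stood higher in NANOG siGFP than in empty vector cells, HOXA4 stood lower and HOXA13 was nearly level. HOXA9, the factor of the oviduct and of blood progenitors, was at 18.7 FPKM in NANOG siHDAC1 cells, 23.0 FPKM in NANOG siGFP cells and 12.4 FPKM in empty vector cells. HOXA11, the gene of the lower uterus and cervix, was at 5.10 and 5.62 FPKM in these NANOG libraries, against 2.88 FPKM with empty vector. HOXA10, which mouse embryos need in the uterus for implantation, was at 13.4, 13.04 and 9.78 FPKM. Both NANOG libraries thus stood above the empty vector library for these 3 genes. HOXA7, which is known to act in keratinocytes, was at 12.1 FPKM in NANOG siHDAC1 cells, 12.6 FPKM in NANOG siGFP cells and 8.08 FPKM in empty vector cells. HOXA5, known from lung and breast epithelium, was at 4.49, 5.87 and 3.51 FPKM. HOXA6 was low, at 0.368, 0.787 and 0.428 FPKM. The HOXA6 value was high in the NANOG siGFP library alone.

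At the low-numbered end of HOXA the genes did not move together. HOXA4, which in mouse helps pattern the neck vertebrae, was at 4.55 FPKM in NANOG siHDAC1 cells, 3.55 FPKM in NANOG siGFP cells and 6.59 FPKM in empty vector cells, highest in the empty vector library. HOXA3, known in mouse as a gene of the pharyngeal arches, was at 2.89, 3.80 and 2.66 FPKM, highest in the NANOG siGFP library. HOXA2, a second pharyngeal arch gene, was at 0.903, 1.07 and 0.791 FPKM. HOXA13, the gene of the vagina and of the digits, was at 1.37 FPKM in NANOG siHDAC1 cells, 1.39 FPKM in NANOG siGFP cells and 1.44 FPKM in empty vector cells, so its 3 libraries lay close together.

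HOXB genes were among the most abundant, and most of them differed little. HOXB7, which is known to be high in several carcinomas, was at 25.1 FPKM in NANOG siHDAC1 cells, 27.9 FPKM in NANOG siGFP cells and 25.1 FPKM in empty vector cells. HOXB9 was at 7.81, 7.13 and 7.30 FPKM, and HOXB3 at 6.22, 5.56 and 5.39 FPKM. HOXB2, in mouse a hindbrain gene, was at 11.5, 11.6 and 9.13 FPKM, so for this gene both NANOG libraries lay above empty vector. HOXB5 was at 1.74, 1.76 and 1.62 FPKM and HOXB6 at 2.60, 2.08 and 2.17 FPKM in the same order. HOXB8, the gene of the miR-196 stretch above, was at 0.633 FPKM in NANOG siHDAC1 cells, 1.12 FPKM in NANOG siGFP cells and 0.603 FPKM in empty vector cells, and so was high in 1 library alone. HOXB4, a factor of blood stem cells, was at 0.417, 0.290 and 0.240 FPKM.

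HOXC genes were low. HOXC9 was the highest in the NANOG siHDAC1 and empty vector libraries, at 3.15 FPKM in NANOG siHDAC1 cells, 2.75 FPKM in NANOG siGFP cells and 2.18 FPKM in empty vector cells. HOXC6 was at 1.32, 1.23 and 0.5003 FPKM, with both NANOG libraries above empty vector. HOXC4 was at 1.96, 3.21 and 1.93 FPKM, and HOXC13, a regulator of hair and nail keratins, at 1.004, 1.73 and 1.10 FPKM. Both of these were high in the NANOG siGFP library alone, and so was HOXC5, at 0.213, 0.467 and 0.286 FPKM. HOXC4, HOXC5 and HOXC6 have overlapping spans, and fragments of exons they share cannot be told apart here. The other HOXC genes, HOXC8, HOXC10 and HOXC11, lay between 0.277 and 0.774 FPKM in every library.

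HOXD expression came mainly from HOXD11 and HOXD10, genes of the limb and of the caudal axis. HOXD11 was at 5.78 FPKM in NANOG siHDAC1 cells, 4.11 FPKM in NANOG siGFP cells and 4.67 FPKM in empty vector cells. HOXD10 was at 2.09, 2.44 and 2.78 FPKM, highest in the empty vector library, so these 2 neighbours did not share an order of libraries. HOXD9 was at 0.945, 1.63 and 0.642 FPKM and was highest in the NANOG siGFP library. HOXD8, HOXD13 and HOXD1 lay between 0.229 and 0.819 FPKM. HOXD3 was at 0.0318, 0.0954 and 0.113 FPKM. HOXD4 was listed at 0 with NANOG siHDAC1 and stood at 0.0298 FPKM in NANOG siGFP and 0.0304 FPKM in empty vector cells. These last 2 genes show how few fragments stand behind the lowest values: the HOXD3 value of the NANOG siGFP library was 3.0002 times that of the NANOG siHDAC1 library, and the 2 HOXD4 values differed by 1.02-fold, as relative depth did. The number of fragments behind the other values is unknown, so no interval is given.

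**Figure D2:**
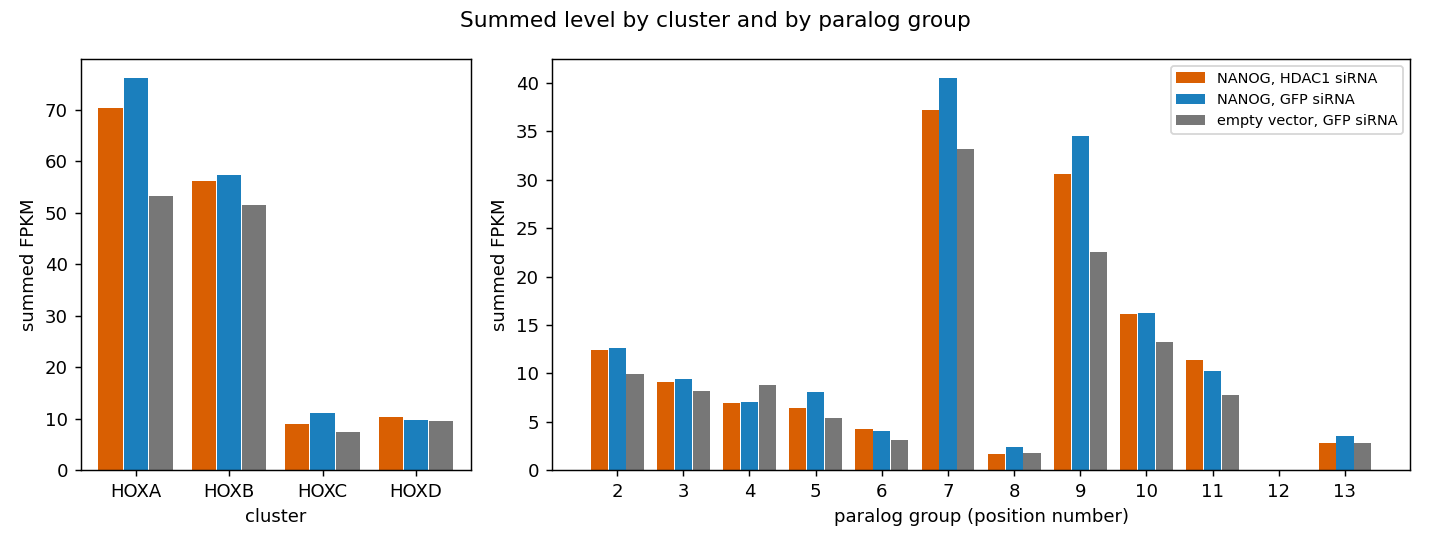
Summed FPKM by HOX cluster (left) and by paralog group, that is by position number, for groups 2 to 13 (right), 1 bar per library. HOXA summed to 70.3, 76.2 and 53.2 FPKM and HOXB to 56.1, 57.4 and 51.6 FPKM in NANOG siHDAC1, NANOG siGFP and empty vector cells; paralog groups 7 and 9 held the most and group 12 was listed at 0.

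Summed over a cluster, HOXA and HOXC stood higher in NANOG siGFP cells than in empty vector cells, and HOXD hardly differed. HOXA summed to 70.3 FPKM in NANOG siHDAC1 cells, 76.2 FPKM in NANOG siGFP cells and 53.2 FPKM in empty vector cells, HOXB to 56.1, 57.4 and 51.6 FPKM, HOXC to 9.02, 11.1 and 7.39 FPKM and HOXD to 10.3, 9.84 and 9.56 FPKM. NANOG siGFP over empty vector siGFP was thus 1.43-fold for HOXA, 1.11-fold for HOXB, 1.497-fold for HOXC and 1.03-fold for HOXD. HOXA9 alone made up much of the HOXA sum, and without it the ratio was 1.30-fold. NANOG siHDAC1 over empty vector siGFP gave 1.32-fold for HOXA, 1.09-fold for HOXB, 1.22-fold for HOXC and 1.07-fold for HOXD. HOXA held 48.3%, 49.3% and 43.7% of the FPKM of all HOX genes in the 3 libraries, and HOXB 38.5%, 37.1% and 42.4%. By paralog group, group 9 summed to 30.6, 34.5 and 22.5 FPKM and group 7 to 37.2, 40.5 and 33.2 FPKM in the same order. Group 4 was the only group with a lower sum in NANOG siGFP than in empty vector cells, at 6.93, 7.08 and 8.79 FPKM, and HOXA4 accounts for its direction, since HOXB4 and HOXC4 were higher in NANOG siGFP cells and HOXD4 was at 0.0304 FPKM or below.

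**Figure D3:**
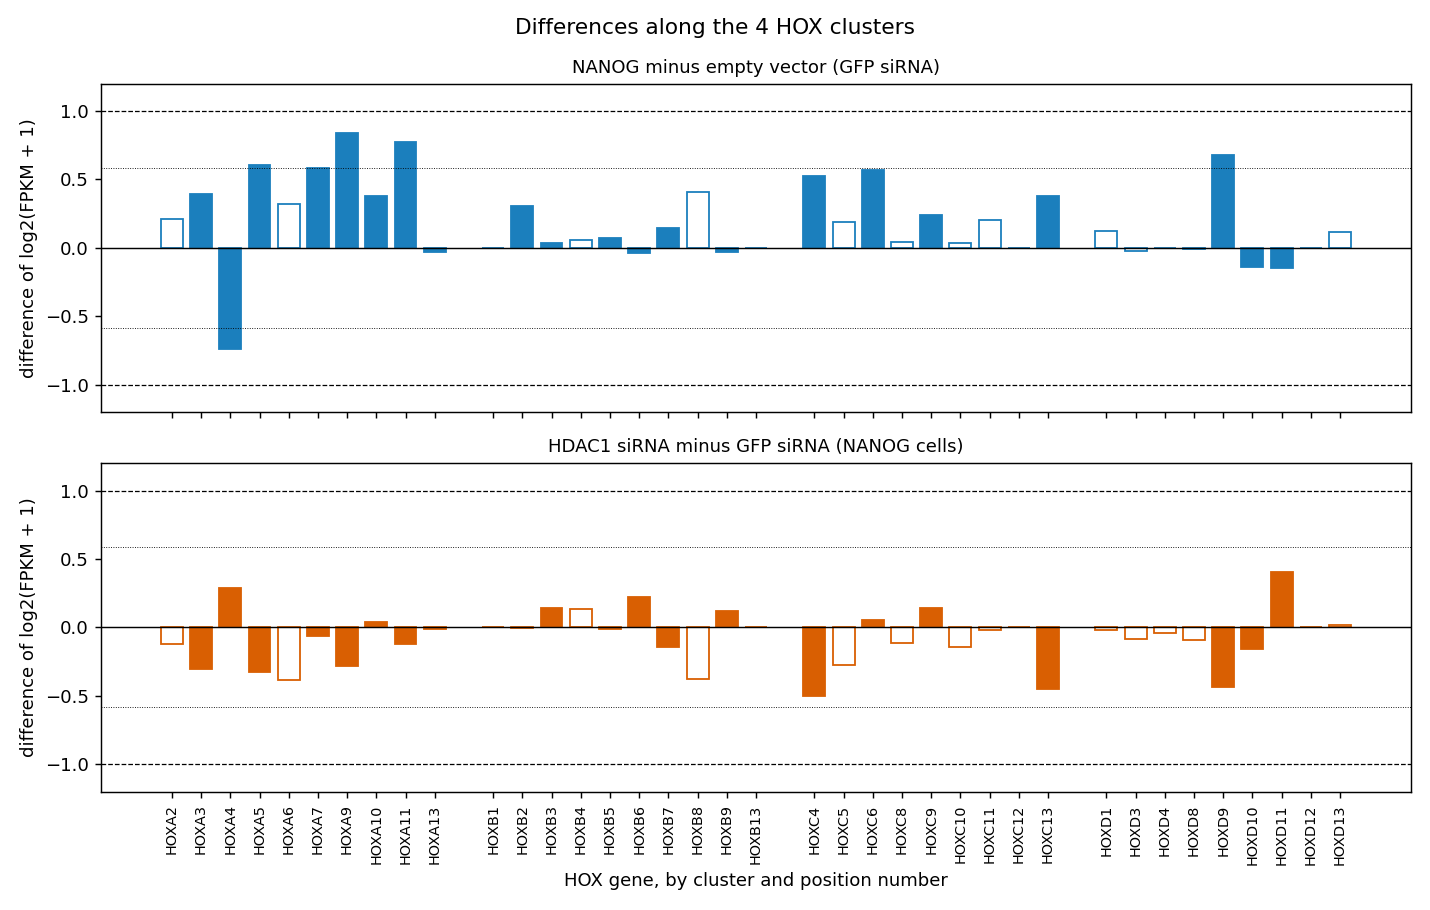
Difference of log2(FPKM + 1) for 38 HOX genes by cluster and position number, for NANOG siGFP minus empty vector siGFP (top) and NANOG siHDAC1 minus NANOG siGFP (bottom); filled bars are the 21 genes tested among them, open bars those with a lower mean, dashed lines mark 2-fold and dotted lines 1.5-fold. The values range from -0.74 for HOXA4 to 0.84 for HOXA9 (top) and from -0.50 for HOXC4 to 0.41 for HOXD11 (bottom), so no bar reaches a dashed line.

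The first comparison set NANOG siGFP cells against empty vector siGFP cells, on the scale of log2(FPKM + 1), which understates the fold of low genes. At 2-fold, 0 of the 22 tested HOX genes were higher and 0 were lower; among all 11398 genes tested, 0.676% were higher by 2-fold or more and 1.2% lower by 2-fold or more. At 1.5-fold, 5 of 22 were higher (HOXA5, HOXA7, HOXA9, HOXA11 and HOXD9) and 1 was lower (HOXA4), against 3.47% higher and 5.25% lower over all genes tested. HOXD9, with a mean of 1.07 FPKM, reached 1 FPKM in the NANOG siGFP library alone. It thus entered the tested set through the library where it was high. The median difference was 0.27 for the 22 HOX genes and -0.01 for all genes tested, and 16 of the 22 lay above 0, against 49.2% of all genes tested. By cluster the medians were 0.39 for 9 HOXA genes, 0.05 for 6 HOXB genes, 0.45 for 4 HOXC genes and -0.14 for 3 HOXD genes.

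The HOXA9 difference was 0.84, a ratio of 1.85 in FPKM, and 1.25% of the genes tested were higher by as much or more. HOXA11 differed by 0.77, a ratio of 1.95, HOXA5 by 0.61 and HOXA7 by 0.59. HOXA4 differed by -0.74, a ratio of 0.539, and 3.09% of the genes tested were lower by as much or more. HOXD9 differed by 0.68 and HOXC6 by 0.57 on this scale, and their FPKM ratios were the largest among the tested HOX genes, at 2.55 and 2.45. With a pseudocount of 0.1 FPKM these 2 genes passed 2-fold, with differences of 1.23 for HOXD9 and 1.145 for HOXC6. The share of all genes tested past 2-fold at that pseudocount was not computed. HOXD9 and HOXC6 have values near 1 FPKM, and HOXC6 overlaps HOXC4 and HOXC5. HOXD9 and HOXC6 averaged 1.07 and 1.01 FPKM and entered the tested set through libraries where they were high.

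**Figure D4:**
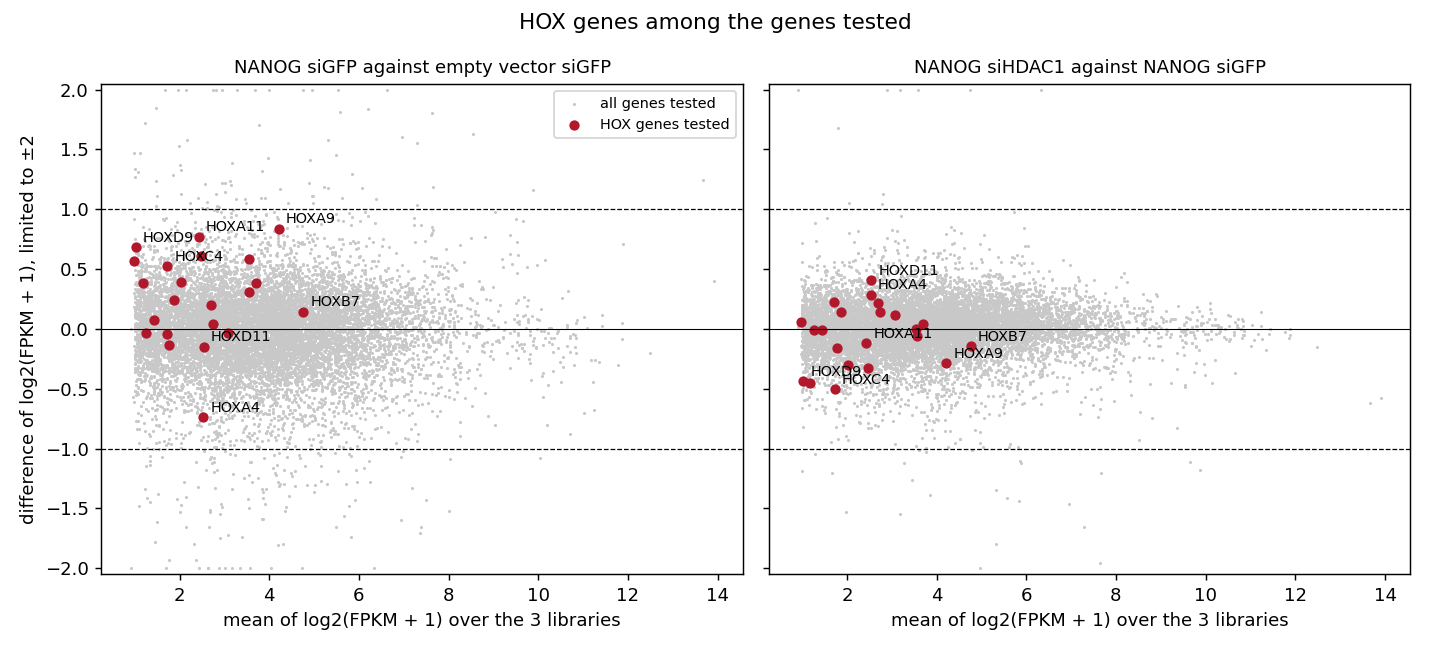
Difference of log2(FPKM + 1) against mean level for the 11398 genes tested (grey) and the 22 HOX genes among them (red), for NANOG siGFP against empty vector siGFP (left) and NANOG siHDAC1 against NANOG siGFP (right); differences beyond 2 in size are drawn at 2, and dashed lines mark 2-fold. HOXA9 at 0.84 and HOXA4 at -0.74 (left) and HOXD11 at 0.41 and HOXC4 at -0.50 (right) lie inside the dashed lines.

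The second comparison set NANOG siHDAC1 cells against NANOG siGFP cells. Of the 22 tested HOX genes, 0 were higher and 0 lower by 2-fold or more. Among all genes tested, 0.0877% were higher and 0.211% lower by as much. At 1.5-fold the counts were again 0 and 0 of 22, against 0.676% higher and 1.43% lower over all genes. Counts of 0 of 22 lie near these shares. The median difference of the 22 was -0.01, against 0.01 for all genes, and 9 of the 22 lay above 0, against 53.4% of all genes. The median was -0.06 over 35 HOX genes with no filter and 0.12 with TPM scaling, which moved the median of all genes to 0.18. Among the 22 tested, the most negative values were -0.50 for HOXC4, -0.45 for HOXC13, -0.44 for HOXD9, -0.32 for HOXA5 and -0.30 for HOXA3. All of these genes were at their highest in the NANOG siGFP library. HOXA6 and HOXB8, which were not tested, differed by -0.39 and -0.38. The most positive values were 0.41 for HOXD11, 0.29 for HOXA4 and 0.22 for HOXB6. HOXA10 and HOXA7 differed by 0.04 and -0.06, and HOXA13 by -0.01. NANOG siHDAC1 over NANOG siGFP was 0.923-fold for the HOXA sum and 0.978-fold for the HOXB sum, both of which turned to above 1 under TPM scaling, 0.815-fold for HOXC and 1.04-fold for HOXD. HDAC1 itself stood high in the NANOG siGFP library, and the part that this library has in these differences was not tested.

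The third comparison, NANOG siHDAC1 cells against empty vector siGFP cells, does not use that library, and it differs from the control in both NANOG and siRNA. At 2-fold, 0 of 22 HOX genes were higher and 0 lower, with 0.368% and 0.807% of all genes tested past the thresholds. At 1.5-fold, 2 of 22 were higher (HOXA11 at 0.65 and HOXC6 at 0.63) and 0 lower, against 1.78% and 3.44% over all genes. HOXC6 averaged 1.01 FPKM and was under 1 FPKM with empty vector, so it entered the tested set through the NANOG libraries. The median was 0.21 for the 22 HOX genes and 0.00 for all genes, and 18 of the 22 lay above 0, against 49.8% of all genes. This median was 0.09 over 35 HOX genes with no filter, 0.36 over 8 with a filter at 5 FPKM and 0.35 under TPM, where the median of all genes was 0.13. HOXA9 differed by 0.55, HOXA7 by 0.53 and HOXA10 by 0.42. HOXA4 stayed negative at -0.45 and HOXD10 was at -0.29. HOXC4, HOXC13, HOXB7 and HOXB8 differed by 0.02, -0.07, 0.00 and 0.03. All 3 comparisons share libraries in pairs, so their values are not independent.

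Of the other transcripts of the clusters, 3 could be tested. HOTAIRM1, a noncoding RNA of the HOXA cluster, was at 8.45 FPKM in NANOG siHDAC1 cells, 8.65 FPKM in NANOG siGFP cells and 8.89 FPKM in empty vector cells. HOXD-AS1, beside HOXD1, was at 3.49, 3.93 and 3.66 FPKM. HOXA-AS5 was at 1.64, 1.12 and 1.24 FPKM and the HOXA10-HOXA9 read-through at 0.218, 0.208 and 0.107 FPKM, which were added to the list once their values had been seen. The noncoding RNA HOTAIR, of the HOXC cluster, was at 0.156, 0.219 and 0.175 FPKM, and HOTTIP, beside HOXA13, at 0.104, 0.0378 and 0.0963 FPKM. Of 18 such symbols found in the files, 8 were listed at 0 in all libraries, 3 were tested, and 0 were at least 2-fold higher or lower in any of the 3 comparisons. Among all genes tested, at most 1.2% were so in any 1 direction and comparison, so a count of 0 lies near that share.

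Of 10 listed cofactors of HOX proteins, 6 were tested, and 0 were at least 2-fold higher or lower in any comparison. Over all genes tested, at most 1.2% were so in any 1 direction, so a count of 0 lies near that share. MEIS2 was at 6.13, 5.14 and 6.44 FPKM in NANOG siHDAC1, NANOG siGFP and empty vector cells, PBX3 at 3.36, 3.20 and 3.34 FPKM and PKNOX1 at 2.75, 3.16 and 3.28 FPKM. PBXIP1, which binds PBX proteins and holds them back, was at 11.4, 12.02 and 14.3 FPKM. PBX4, named because of its values, was at 1.74, 1.21 and 0.751 FPKM, so that both NANOG libraries lay above the empty vector library. In NANOG siGFP against empty vector cells the median difference of the 6 tested cofactors was -0.14.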

How the data were processed

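RNA sequencing of 3 CaSki libraries was used, grouped by their titles. Libraries were prepared from 2 ug of Trizol-extracted RNA with a stranded TruSeq kit for total RNA, per the labels' protocols. TopHat2, Cufflinks and hg19 are named per the submitters' processing notes; for versions, annotation and filters nothing is given in the sources used here. FPKM values, 1 per symbol and library, were deposited by the authors, already divided by transcript length and mapped fragments, so very abundant RNAs lower all other values. The values summed to 600749 FPKM (NANOG siHDAC1), 681947 (NANOG siGFP) and 660990 (empty vector siGFP), of which 1641 small RNA symbols, left out of the comparisons, held 16.0%, 23.1% and 21.2%. Absolute depth is unknown. Among 2158 genes under 0.3 FPKM, the most frequent ratio to NANOG siGFP was 0.9995 for NANOG siHDAC1 and 1.02 for empty vector siGFP, so relative depth was nearly equal.

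Differences are of log2(FPKM + 1), the added 1 FPKM being the pseudocount, for the 11398 genes that averaged 1 FPKM or more across libraries; thresholds were 2-fold and 1.5-fold. No test was possible with 1 library per group. The calculation was tested on simulated data. A few genes, 1 HOX member among them, enter the counts but are not reported here. Members and gene lists were chosen with earlier results of these data known. By rule, all members are named or counted. For each list the rule was to name the genes past 2-fold and otherwise up to 4 with the highest mean. This was not followed throughout. EZH2, KDM6A, MLL, HOTAIR and HOTTIP, for example, are named while genes of their lists with higher means are not. Promoters and microRNAs came from RefSeq (GRCh38.p14) and transcripts from GENCODE release 29, also on GRCh38 and not the build of the values; 1 window per RefSeq start was searched. Alternatives were other pseudocounts, filters, scalings and thresholds. Python 3.11.15, numpy 2.4.6, pandas 2.3.3 and matplotlib 3.10.9 were used.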

Additional observations from a re-analysis of the deposited data

How the results depend on the processing

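In the comparison of NANOG siGFP with empty vector cells, a pseudocount of 0.1 FPKM gave 2 HOX genes at least 2-fold higher in place of 0 (HOXC6 and HOXD9), and a 1.5-fold threshold gave 5 higher and 1 lower. In NANOG siHDAC1 against empty vector cells these settings gave 1 (HOXC6) and 2 higher in place of 0. The smaller pseudocount shrinks the folds of genes near 1 FPKM less than the 1 FPKM used otherwise. This holds for any low gene, and the share of all genes tested past 2-fold at 0.1 FPKM was not computed. HOXC6 and HOXD9 also entered the tested set through libraries where they were high. The counts stayed at 0 with a pseudocount of 0.5 FPKM, no filter, a filter at 5 FPKM, a 3-fold threshold and all 4 scalings. TPM scaling moved the median of all genes by more than 0.1, to 0.18 for NANOG siHDAC1 against NANOG siGFP and 0.13 against empty vector cells, and changed the sign of 11 of 105 differences of single HOX genes; the log2 difference of the HOXD sum (sum + 1) for NANOG siGFP against empty vector cells was 0.04 with FPKM and -0.00326 with TPM. The median of the 22 tested HOX genes in NANOG siGFP against empty vector cells lay between 0.25 and 0.30 under the 4 scalings and was 0.19 over 35 genes with no filter. In NANOG siHDAC1 against NANOG siGFP cells the median of -0.01 became 0.12 under TPM, 0.03 under TPM without small RNAs, 0.02 with a filter at 5 FPKM and -0.06 with no filter. In NANOG siHDAC1 against empty vector cells the median of 0.21 was 0.09 with no filter, 0.36 with a filter at 5 FPKM and 0.35 under TPM. No paired analysis was possible because each group has 1 library. Depth limits the 17 members under a mean of 1 FPKM, whose folds are the least certain.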

Other observations

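Retinoic acid is a known inducer of HOX genes. Of 18 listed genes that bind or handle it, 10 were tested. In NANOG siGFP against empty vector cells, 2 of the 10 were at least 2-fold higher and 1 was lower by as much, against 0.676% and 1.2% of all genes tested, on the log2(FPKM + 1) scale. Those higher were ALDH1A3, which makes retinoic acid (19.5 against 8.64 FPKM, difference 1.09), and DHRS3, which reduces retinal (7.39 against 3.17 FPKM, 1.01). In NANOG siHDAC1 cells ALDH1A3 was at 13.4 FPKM and DHRS3 at 5.45 FPKM. For NANOG siHDAC1 against empty vector cells, 0 of the 10 were at least 2-fold higher and 1 was lower by as much. Of all genes tested, 0.368% and 0.807% were past these thresholds. The receptor gene RARG was at 16.9 FPKM in NANOG siHDAC1 cells, 32.9 FPKM in NANOG siGFP cells and 19.2 FPKM in empty vector cells, high in 1 library alone, and RARB was under 0.1 FPKM in every library. RXRB was listed at 0 in all 3 libraries, as was the Polycomb gene RING1. Whether such a 0 means that the RNA is absent was not tested.

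Chromatin regulators of the HOX clusters stayed inside 2-fold in the 3 comparisons: 0 of 20 tested Polycomb genes and 0 of 13 tested trithorax and H3K27 demethylase genes were past it. Over all genes tested, at most 1.2% were past 2-fold in any 1 direction and comparison, so counts of 0 lie near that share. EZH2, the methyltransferase of Polycomb, was at 35.3, 28.8 and 27.3 FPKM in NANOG siHDAC1, NANOG siGFP and empty vector cells. The demethylase KDM6A was at 16.8, 13.1 and 20.9 FPKM, and the trithorax methyltransferase MLL at 6.25, 6.16 and 6.95 FPKM. CTCF, which separates active from silent parts of the clusters, was at 25.2, 27.9 and 24.9 FPKM. Of the 16 tested genes that flank the clusters, CBX5, which encodes the heterochromatin protein HP1 alpha and lies beyond HOXC4, passed 2-fold, at 6.38, 15.0 and 6.55 FPKM, high in the NANOG siGFP library alone. Of all genes tested, 0.676% were at least 2-fold higher in NANOG siGFP than in empty vector cells. In NANOG siHDAC1 against NANOG siGFP cells 0.211% were at least 2-fold lower.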
